A study of Serinus canaria and Ploceus bicolor and Uraeginthus cyanocephalus with 155 samples.

Results

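The entopallium, the visual area of the avian pallium that receives the ascending pathway from the midbrain, was compared between male and female forest weavers (Ploceus bicolor), an African songbird in which both mates of a pair sing. The groups were 6 adult males and 6 adult females, 12 of the 155 arrays in the series, and membership was taken from the sex and tissue given in the sample labels. All 12 birds were labelled as adult, breeding, under a long-day light cycle, untreated and singing, and the study's methods describe wild pairs caught in their breeding territories. Each array held the entopallium of a single bird, dissected with forceps from brain sections, so the 6 samples of a sex were taken as separate birds. Their titles carry different bird numbers, and that of female replicate 4 reads 12-9, a suffix whose meaning is not given. The labels do not say which male and female were mates.

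Male birds carry a pair of Z chromosomes, whereas females carry a Z and a W. Birds lack the chromosome-wide dosage compensation known from mammals, and many Z genes are therefore expressed at a higher level in males than in females in most tissues, while genes of the W chromosome are expressed in females only. The entopallium is not part of the song control system, and it serves as the comparison tissue for the song nucleus HVC in this series. The other species referred to below are the blue-capped cordon-bleu, of which both sexes sang, and the canary, which was sampled as breeding birds, non-breeding birds and non-breeding birds implanted with testosterone.

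The measurement was the log2 level of 26061 transcripts on a custom exon array made of zebra finch probes, so that on the scale used below a difference of 1 is a 2-fold difference. The paper describes the probes as specific to the male zebra finch and states that it lacked annotation for W genes. Whether any transcript below belongs to the W chromosome is not known here. The transcripts carried zebra finch Ensembl or RefSeq identifiers for the most part, and none of them matched the gene table used here, so no gene names, chromosomes, cell type markers or sequences are given and the Z-linked transcripts were not separated from the autosomal ones. At most 2 identifiers are given for each direction of a comparison. The label of the tissue could likewise not be checked against marker genes, but each of the 24 forest weaver arrays of entopallium and HVC correlated best with another array of its own tissue. Among the entopallium arrays, the median level lay between 7.22 and 7.29 and the 1st percentile between 2.74 and 2.86. For properties of the whole array, no difference between the sexes passed the threshold in the deposited values. The authors had already normalised these values, which by itself brings arrays closer together. The test therefore cannot tell whether the arrays of the sexes differed before that step. The array median was 7.26 ± 0.02 in males and 7.25 ± 0.02 in females (SD, n = 6 each, two-sided exact permutation test, p = 0.429, adjusted p = 0.716 over 4 measures), and the 1st percentile, the interquartile range and the total intensity had adjusted p-values from 0.716 to 0.805 in the same exact test.

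Most of the transcripts called sex-biased in the forest weaver entopallium were higher in males. At an adjusted p under 0.05 (limma, Benjamini-Hochberg over all transcripts) and a log2(fold change) of 0.5 or more in size, 242 transcripts were sex-biased, 0.929% of those tested. Of these, 228 were male-biased (0.875% of all transcripts) and 14 were female-biased (0.0537%). With a log2(fold change) of at least 1 in size, the calls were nearly even, at 7 male-biased and 5 female-biased. The median log2(fold change) of all 26061 transcripts was 0.00.

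**Figure D1:**
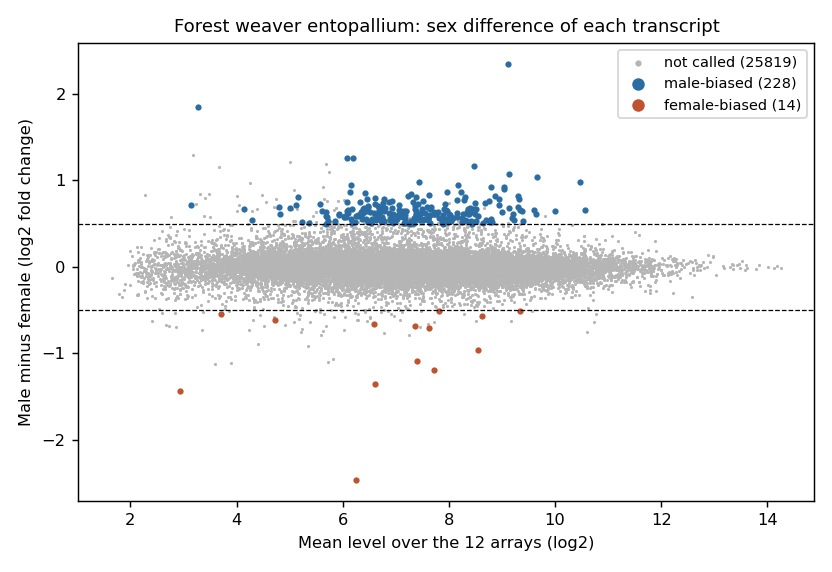
Male minus female log2(fold change) of each of the 26061 transcripts (vertical axis) against its mean log2 level over the 12 forest weaver entopallium arrays (horizontal axis). The 228 male-biased transcripts form a band just above the dashed line at 0.5 across most of the range of levels, whereas the 14 female-biased transcripts are scattered.

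The values of the called transcripts are a description, since the call was made on the same 12 arrays and no value under 0.5 could enter. The male-biased transcripts had a median log2(fold change) of 0.62, with quartiles of 0.56 and 0.69; 190 of the 228 lay between 0.5 and 0.75, 31 between 0.75 and 1, and 7 at 1 or above. In 206 of the 228, every male had a higher level than every female, which the call itself favours; over all transcripts 1.81% had males entirely above females and 0.38% had females entirely above males. The birds of a sex differed in the male-biased transcripts about as much as in any other, with a median residual SD of 0.14 against 0.13 for all transcripts.

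The log2(fold change) of the 14 female-biased transcripts ran from -0.51 to -2.46 with a median of -0.70, 5 of them were at -1 or below, and 9 did not overlap between the sexes. The call itself favours this, and over all transcripts 0.38% had females entirely above males. The residual SD of the 14 had a median of 0.23. Their number was 9 without male replicate 2 and 31 with one model over the entopallium groups of all 3 species.

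Sex-biased transcripts were found at low, middle and high levels, but none had a mean level above 10.56, while the highest of all transcripts was 14.26. With the transcripts divided by mean level into 4 classes of equal size, 0.322% of the lowest class were male-biased (21 transcripts), against 1.34% (87) in the next, 1.09% (71) in the one above and 0.752% (49) in the highest. The female-biased transcripts numbered 3, 3, 5 and 3 in the same order. The source of the identifier made a larger difference: 2.55% of the 1683 transcripts taken from Ensembl annotations of other species were male-biased, against 1.12% of 892 GenBank cDNAs, 0.896% of 11936 zebra finch Ensembl transcripts and 0.589% of 11550 RefSeq transcripts. Of the 14 female-biased transcripts, 10 were RefSeq and 4 zebra finch Ensembl transcripts.

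The thresholds left many transcripts just outside. On the adjusted p alone, 551 transcripts passed in limma, of which 493 were higher in males and 58 in females, and 265 and 44 of these, respectively, had a log2(fold change) under 0.5 in size. By fold change only, males were higher in 301 transcripts and females in 81, and 140 of these were not called.

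Among the transcripts without overlap between the sexes, the largest difference of all was female-biased. XM_002193981 had levels from 4.41 to 5.50 in the 6 males (median 5.0) and from 7.45 to 7.56 in the 6 females (median 7.47). The females differed among themselves by little and stood far above the highest male, whereas the males were spread over about 1 log2 unit. The log2(fold change) was -2.46 (SE 0.15, limma adjusted p = 4.91e-06, higher in 6 of 6 females), the smallest adjusted p of the comparison and a 5.51-fold difference.

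The next female-biased transcript by size among those without overlap, XM_002199374, showed a smaller gap. Its levels ran from 5.29 to 6.64 in males (median 5.98) and from 6.75 to 8.22 in females (median 7.24). The lowest female was only just above the highest male, and one female stood above the others. The log2(fold change) was -1.35 (SE 0.27, limma adjusted p = 0.0152).

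On the male side, XM_002189016 had levels from 3.28 to 4.99 in males (median 4.13) and from 2.16 to 2.83 in females (median 2.25). Of the females, 5 lay at or below 2.44, which was under the 1st percentile of every entopallium array, so the female value was at the low end of what the array registers. The log2(fold change) was 1.85 (SE 0.25, limma adjusted p = 0.000559).

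XM_002187514 was measured well within the range of the array in both sexes, at 6.31 to 7.24 in males (median 6.63) and 4.83 to 5.93 in females (median 5.43). The lowest male was above the highest female, with a log2(fold change) of 1.26 (SE 0.21, limma adjusted p = 0.00303).

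The male-biased transcript with the largest fold change overlapped between the sexes because of 1 bird. Male replicate 1 had a level of 7.84, inside the female range of 7.62 to 8.17 (median 8.0), while the other 5 males lay between 10.32 and 11.08. The log2(fold change) was 2.35 (SE 0.44, limma adjusted p = 0.00906) with all 12 birds and 2.84 (SE 0.14, adjusted p = 2.28e-06) without male replicate 1. This bird was left out for its level in this same transcript, so the smaller SE and adjusted p are a description. Male replicate 1 had the highest mean level of all 12 birds over the cordon-bleu list described below, so it was low in this transcript and not in male-biased transcripts generally.

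**Figure D2:**
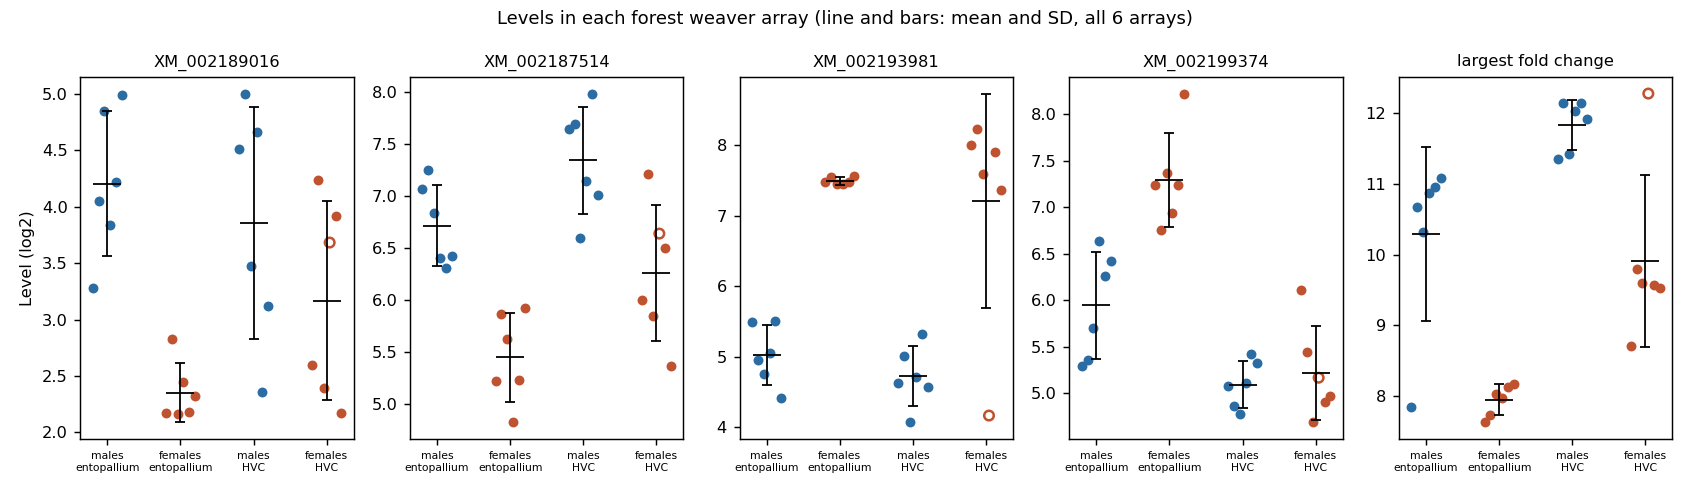
Log2 level (vertical axes, a separate scale in each panel) of 4 named transcripts and of the male-biased transcript with the largest fold change in each of the 24 forest weaver arrays, with the mean and SD of each group of 6. In the entopallium the sexes are apart in all panels but the last, where male replicate 1 lies among the females; the open circle is the HVC array labelled female replicate 4, which lies with the males in the panels of XM_002193981 and of the largest fold change.

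The male bias was next read for a list that the forest weavers had not chosen. In the entopallium of 6 male and 6 female cordon-bleus, 263 transcripts were male-biased by the same limma rule, 1.01% of those tested. In the forest weaver entopallium, 259 of these 263 had a higher mean in males, 200 (76%) had every male above every female, and 160 (60.8%) passed the call. The shares of all transcripts were 51.88%, 1.81% and 0.875%, in the same order. Their median log2(fold change) in forest weavers was 0.56, with quartiles of 0.46 and 0.65, and for all transcripts the quartiles were -0.06 and 0.06. Of the list, 199 transcripts (75.7%) lay between 0.4 and 0.8 and only 4 at 1 or above. Entry to the list required 0.5 or more in cordon-bleus, so transcripts with a smaller male bias there were left out. The median and the lower edge of this range therefore describe the list and not male bias in general. In forest weavers, 265 transcripts higher in males passed the limma adjusted p with a log2(fold change) under 0.5.

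**Figure D3:**
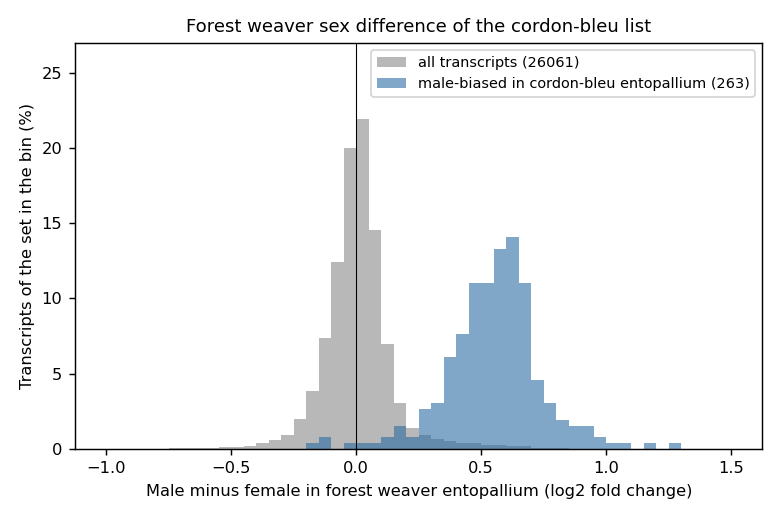
Distribution of the male minus female log2(fold change) in forest weaver entopallium (horizontal axis) for all 26061 transcripts and for the 263 male-biased transcripts of cordon-bleu entopallium, as the percentage of each set in bins of 0.05 (vertical axis). All transcripts centre on 0 and the cordon-bleu list centres on 0.56; values beyond the ends of the axis are not drawn.

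The mean level over these 263 transcripts gave 1 value for each bird. In the entopallium it lay between 7.38 and 7.51 in male forest weavers (median 7.44) and between 6.84 and 6.96 in females (median 6.89). The gap between the lowest male and the highest female was wider than the range within either sex, and all 12 entopallium arrays lay on the side that their label gives. The mean over the 5 transcripts that were female-biased in cordon-bleu entopallium lay between 5.92 and 6.14 in male forest weavers and between 6.61 and 6.81 in females, and 2 of these 5 were female-biased in the forest weaver entopallium. The median log2(fold change) of the 5 was only -0.12 and 1 of them had a higher mean in males, so the gap in their mean level came mostly from the 2 that were called.

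In HVC, 1 array went against its label. The array labelled female replicate 4 had a mean of 7.49 over the cordon-bleu male-biased list, within the range of the 6 male HVC arrays (7.30 to 7.57) and above the other 5 female HVC arrays (6.80 to 7.10). It had a level of 4.17 for XM_002193981, where the males lay between 4.07 and 5.33 and the other females between 7.36 and 8.23. This HVC array carries the bird number 8-2 in its title. The female entopallium array with the number 8 had 6.87 over the list and 7.45 for XM_002193981, both within the female range. The meaning of the suffix is not given, so whether the arrays share a bird is not known. Values for the comparison with HVC are therefore given with and without the library labelled female replicate 4. It was set aside after these levels were seen, so calls and p-values without it are a description and not an independent test.

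**Figure D4:**
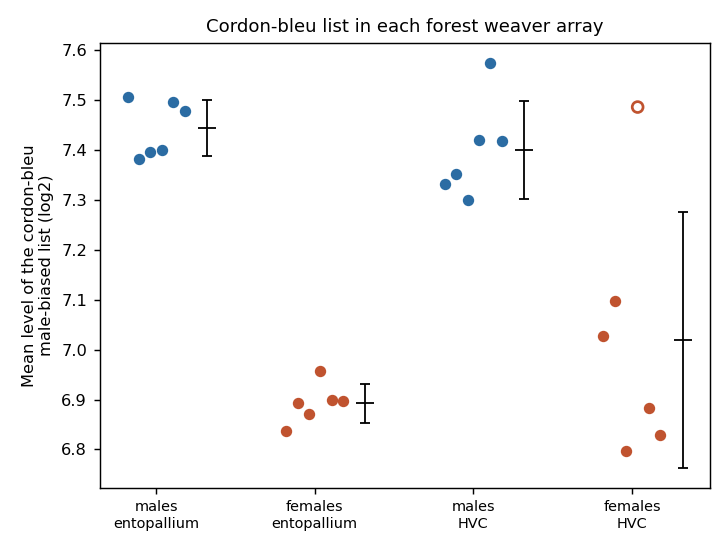
Mean log2 level of the 263 male-biased transcripts of cordon-bleu entopallium (vertical axis) in each of the 24 forest weaver arrays by sex and tissue, with the mean and SD of each group of 6. The 12 entopallium arrays separate by sex, between 6.84 and 6.96 for females and 7.38 and 7.51 for males, and the open circle is the HVC array labelled female replicate 4 at 7.49.

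The male-biased transcripts of the entopallium were also higher in the HVC of male forest weavers. With all 12 HVC arrays, 221 of the 228 had a higher mean in males, against 54.1% of all transcripts. Their median log2(fold change) was 0.41 against 0.01 for all transcripts. However, limma called no transcript of either direction in HVC (smallest adjusted p = 0.336, 1447 transcripts with an unadjusted p under 0.05). The paper does report many sex-biased genes in forest weaver HVC, at the same fold change threshold but from a test on single probes. That test was not run here, so the counts cannot be compared. Without the library labelled female replicate 4, 222 were higher in males, the median was 0.51, and limma called 85 male-biased (0.326%) and 9 female-biased transcripts (0.0345%) in HVC, of which 59 and 4 were among the 228 and the 14 of the entopallium. Leaving out any other of the 12 HVC arrays gave 0 calls. Labels repeat some bird numbers in both tissues, and some birds appear to have given both tissues.

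Whether the sex difference was of another size in the entopallium than in HVC was tested by the interaction of sex and tissue. No transcript was called (smallest limma adjusted p = 0.967, 1130 transcripts with an unadjusted p under 0.05), nor was any called without the library labelled female replicate 4 (smallest adjusted p = 0.224, 1170 transcripts with an unadjusted p under 0.05). The 228 male-biased transcripts had a median difference of 0.23 between the entopallium and HVC with all arrays and of 0.13 without that library. The 228 had been chosen for their difference in the entopallium, which by itself raises the entopallium value, so nothing is read from the sign of these medians. The median residual SD was 0.19 in HVC and 0.13 in the entopallium.

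The named transcripts behaved in different ways in HVC. XM_002193981 had a log2(fold change) of -2.49 in HVC with all arrays (SE 0.55, limma adjusted p = 0.373) and was not called. Without the library labelled female replicate 4 the value was -3.10 (SE 0.21, limma adjusted p = 4.94e-05). That library was set aside after its level in this transcript was seen, so the smaller adjusted p is a description. XM_002199374 had nearly equal means in HVC, 5.09 in males and 5.21 in females with all arrays, and its difference between the tissues was -1.23 (SE 0.36, limma adjusted p = 0.972) and -1.22 (SE 0.38, adjusted p = 0.933) without that library. XM_002187514 had a log2(fold change) of 1.08 in HVC (SE 0.29, adjusted p = 0.521 in limma), or 1.16 (SE 0.31, adjusted p = 0.242) without it. Its difference between the tissues was 0.18 (SE 0.38, limma adjusted p = 0.984) with all arrays and 0.10 (SE 0.40, adjusted p = 0.985) without it. For XM_002189016 the HVC value was 0.69 (SE 0.47, adjusted p = 0.896 in limma), or 0.79 (SE 0.51, adjusted p = 0.89) without it, and the difference between the tissues was 1.16 (SE 0.57, limma adjusted p = 0.972) and 1.06 (SE 0.59, adjusted p = 0.933). That of XM_002193981 was 0.02 (SE 0.62, limma adjusted p = 1.00) and 0.63 (SE 0.27, adjusted p = 0.933). The transcript with the largest male bias in the entopallium had a value of 1.93 in HVC (SE 0.44, limma adjusted p = 0.373), and of 2.4 (SE 0.21, adjusted p = 0.00045) without that library. The library stood apart in this transcript too, so the smaller adjusted p is likewise a description.

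In the other species, the male-biased transcripts of forest weavers kept their direction for the most part. In cordon-bleu entopallium, 226 of the 228 were higher in males, with a median log2(fold change) of 0.60, and 160 were called by limma, which was 70.2% of the forest weaver list and 60.8% of the cordon-bleu one. In cordon-bleu HVC, 222 were higher in males, the median was 0.60, and 160 were called (70.2% of the 228 and 59.3% of its own 270, which were 1.04% of all transcripts). The medians over all transcripts were 0.00 and 0.02 in these comparisons, and 52.4% and 57.7% of all transcripts were higher in males. Most bird numbers of the cordon-bleus recur in both tissues, so their entopallium and HVC are not independent of each other.

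In breeding canary entopallium, 221 of the 228 were higher in males, with a median of 0.56 against -0.01 for all transcripts, and 130 were called, 57% of the forest weaver list and 21.7% of the 598 male-biased transcripts of the canaries (2.29% of all). In the non-breeding canaries, 223 were higher in males (median 0.43) and 72 were called (31.6% of the 228 and 58.5% of 123, 0.472% of all). In the testosterone-implanted canaries, 208 were higher in males (median 0.43) and 95 were called (41.7% of the 228 and 12.5% of 760, 2.92% of all). Another 4 of the 228 were called female-biased there, as were 878 of all 26061 transcripts (3.37%). Over all transcripts, males were higher in 47.8%, 59% and 51.7% in the breeding, non-breeding and testosterone-implanted canaries, in that order. These canary comparisons are of 6 males with 6 females, or with 5 females among the non-breeding birds. The paper lists the breeding males as singing and the breeding females as not singing, so sex and singing cannot be told apart there. It lists both sexes of these non-breeding birds as not singing and both sexes of the testosterone-implanted birds as singing. The probes were designed on zebra finch sequence, and how well they bind the RNA of a species and how much of it was there cannot be told apart in a comparison of levels between species.

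**Figure D5:**
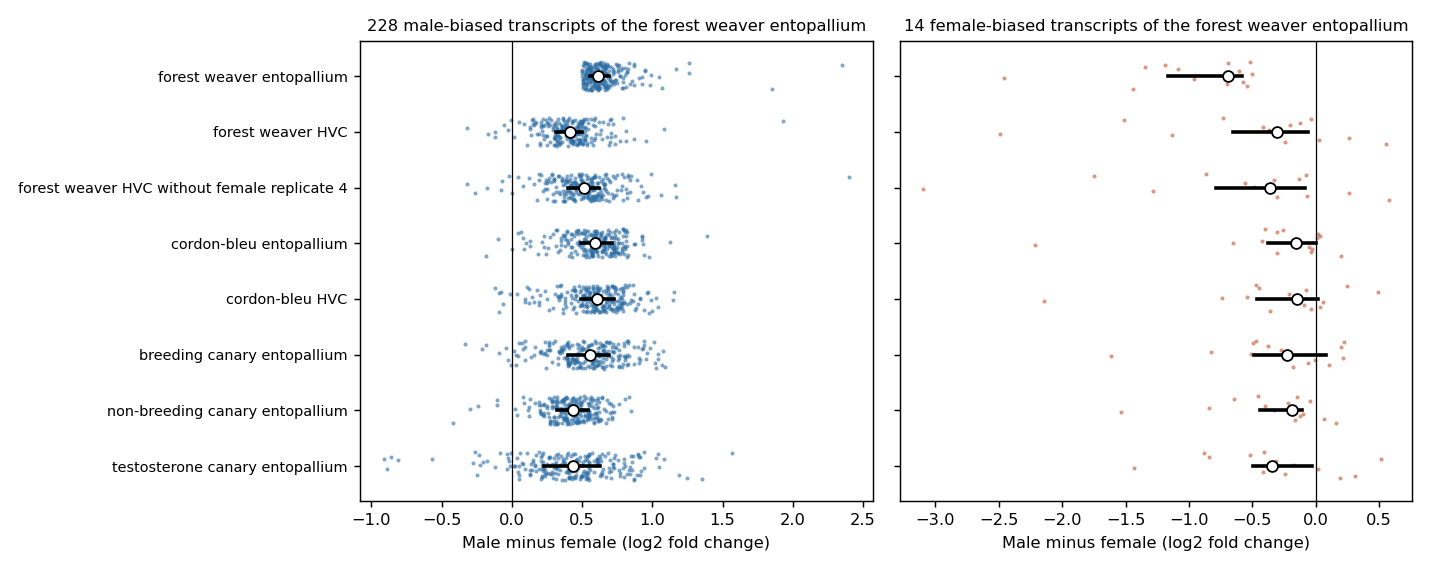
Male minus female log2(fold change) (horizontal axes) of the 228 male-biased (left) and 14 female-biased (right) transcripts of the forest weaver entopallium in each comparison (rows), 1 point per transcript, with the median (open circle) and quartiles (black line). The first row is the comparison that chose the transcripts; in the other rows the male-biased medians lie between 0.41 and 0.60 and the female-biased medians lie between -0.36 and -0.15.

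By the limma calls, 104 of the 228 transcripts were male-biased in the entopallium of all 3 species (forest weavers, cordon-bleus and breeding canaries). These 104 had a median log2(fold change) of 0.64 in forest weavers, 0.67 in cordon-bleus and 0.67 in breeding canaries. The call required 0.5 or more in each of the 3 species, so these medians are a description. In 99 of the 104 the forest weaver males were all above the females, against 206 of the 228 and 1.81% of all transcripts. The call itself favours this. A further 56 were called in cordon-bleus but not in breeding canaries (median 0.61 in forest weavers), and 26 in breeding canaries but not in cordon-bleus (median 0.60).

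The remaining 42 were called in neither, with a median of 0.58 in forest weavers, 0.38 in cordon-bleus and 0.27 in breeding canaries. Of these, 40 were still higher in male cordon-bleus and 37 in male breeding canaries, against 52.4% and 47.8% of all transcripts. Their residual SD in forest weavers had a median of 0.20, against 0.14 for the 104. The forest weaver transcripts called in none of the 6 other comparisons numbered 26. In 18 of the 26 every male was above every female, against 206 of the 228 and 1.81% of all transcripts. Without the library labelled female replicate 4, 2 of these 26 were called in forest weaver HVC, the transcript with the largest male bias among them.

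The transcript with the largest male bias belonged to this group of 26. In cordon-bleu entopallium both sexes had a high level, with means of 11.19 in males and 11.15 in females, and the log2(fold change) was 0.04 (SE 0.07, limma adjusted p = 1.00). In breeding canaries, the means were 8.92 in males and 9.26 in females, a log2(fold change) of -0.33 (SE 0.12, adjusted p = 0.0451 in limma). The means of forest weavers on the same array were 10.29 ± 1.23 in males and 7.94 ± 0.22 in females (SD, n = 6 each).

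Of the 14 female-biased transcripts, 10 were higher in females in cordon-bleu entopallium and 10 in breeding canary entopallium, with medians of -0.16 and -0.23. Over all transcripts, 47.6% and 52.2% were higher in females, and with only 14 transcripts little is read from these counts. The calls numbered 2 in cordon-bleu entopallium (14.3% of the 14 and 40% of the 5 female-biased transcripts there, 0.0192% of all) and 3 in breeding canaries (21.4% of the 14 and 1.2% of 249, 0.955% of all). In cordon-bleu HVC 3 of the 14 were called (0.0614% of all), in non-breeding canaries 3 (0.0806% of all) and in testosterone-implanted canaries 4 (3.37% of all). In the HVC of forest weavers, 11 of the 14 were higher in females with all arrays (median -0.30), against 45.9% of all transcripts. Without the library labelled female replicate 4, 12 of the 14 were higher in females (median -0.36).

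XM_002193981 was 1 of the 2 female-biased transcripts called in the entopallium of all 3 species. Its log2(fold change) was -2.21 (SE 0.12) in cordon-bleu entopallium, with a limma adjusted p of 9.43e-07, and -1.61 (SE 0.07, adjusted p = 9.98e-08 in limma) in breeding canaries. The sexes did not overlap in either, nor in cordon-bleu HVC or in the non-breeding and testosterone-implanted canaries. Of all transcripts, 1.77% had no overlap in cordon-bleu entopallium and 2.01% in cordon-bleu HVC. The shares were 13.7%, 4.82% and 19.7% in breeding, non-breeding and testosterone-implanted canary entopallium. XM_002199374 was different, with a log2(fold change) of 0.02 (SE 0.15, limma adjusted p = 1.00) in cordon-bleu entopallium at a level of 4.39 in males and 4.37 in females. In breeding canaries its value was -0.37 (SE 0.09, limma adjusted p = 0.00597), which missed the call on size only. In testosterone-implanted canaries the value was -0.84 (SE 0.15, limma adjusted p = 0.00064), and the transcript was called.

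Among the male-biased pair, XM_002187514 was also called in cordon-bleu entopallium (0.93, SE 0.20, limma adjusted p = 0.0277), and in breeding canaries it was near the low end of the array in both sexes, at 2.62 and 2.29. XM_002189016 had a value of -0.18 (SE 0.41, limma adjusted p = 1.00) in cordon-bleu entopallium and was called in none of the other 6 comparisons.

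The difference between the species was tested by the interaction of sex and species in the entopallium of forest weavers and cordon-bleus. Limma called 2 transcripts (0.00767% of those tested; 1109 had an unadjusted p under 0.05). The count was 0 after quantile normalisation or with the replicate block and 5 with array weights. ENSTGUT00000005975 had a log2(fold change) of -0.96 in forest weavers (adjusted p = 4.87e-05) and -0.05 in cordon-bleus, a difference of -0.91 (SE 0.15, adjusted p = 0.0438 in limma), and it was 1 of the 14 female-biased transcripts. ENSTGUT00000007544 had 0.11 in forest weavers and -0.47 in cordon-bleus, a difference of 0.58 (SE 0.09, limma adjusted p = 0.0298).

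Neither the 228 male-biased transcripts nor the named 4 were called in this test, and for XM_002189016 and XM_002199374 the differences between the species were 2.03 (SE 0.51, limma adjusted p = 0.55) and -1.37 (SE 0.32, adjusted p = 0.4). The median difference between the species over the 228 was 0.04. Leaving out single birds moved the 2 interaction calls across the threshold but changed the differences little. Over the 24 fits without 1 forest weaver or cordon-bleu array, the difference of ENSTGUT00000005975 lay between -0.97 and -0.84 (limma adjusted p from 0.0128 to 0.112, under the threshold in 7 fits) and that of ENSTGUT00000007544 between 0.53 and 0.61 (adjusted p from 0.00989 to 0.0935, under it in 13). Among forest weavers, the count was 0 without male replicate 3, 4 or 6 or without female replicate 2, 4, 5 or 6, it was 1 without female replicate 1, and it was 5 without male replicate 1. Among cordon-bleus, it was 0 without male replicate 2 or 5 or female replicate 1 or 6, 1 without male replicate 3 or 4 or female replicate 4 or 5, 3 without female replicate 2 and 4 without female replicate 3.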

How the data were processed

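RNA of dissected tissue was hybridised to a custom exon array whose probes match zebra finch sequence. The deposited values are log2 transcript levels that the authors had normalised; Affymetrix Expression Console is the tool in the submitters' notes, without settings. The depth of an array is not a count, so the number of arrays limits the precision. The study's own test on probe intensities was not run here.

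From the log2 levels, limma 3.58.1 (R 4.3.3) was fitted to the 6 male and 6 female arrays, male minus female, with Benjamini-Hochberg adjustment over 26061 transcripts. Calls required a log2(fold change) of 0.5 or more in size and an adjusted p under 0.05. Interactions were fitted over 4 group means with the same rule. Array measures were tested by exact permutation with scipy. The script was tested on simulated data. The named transcripts were the 2 with the largest log2(fold change) in each direction among those called without overlap (for interactions, among those called); the largest male-biased transcript was singled out after its values were seen. The members and lists were chosen with earlier results of these data known. The alternatives were other scalings, filters, weights, blocks, thresholds and arrays left out. None of the identifiers matched the 17915 genes of the canary table.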

Additional observations from a re-analysis of the deposited data

Results flagged for a closer look

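The level of the male-biased transcript with the largest fold change was 7.84 in entopallium male replicate 1, far from the other 5 males of its group. The HVC array labelled female replicate 4 stood apart from the other 5 female HVC arrays in the same transcript, at a level of 12.28, and in XM_002193981, at 4.17. A group of samples is expected to be marked by chance in about 1 case in 20 when measures are independent and set beforehand, and 3 of 36 groups were marked here. That rate cannot be applied to these marks. The transcript with the largest fold change was singled out after its values were seen, and the same HVC array was marked in both transcripts. The sex difference of ENSTGUT00000007544 differed between forest weavers and cordon-bleus by 0.58 and that of ENSTGUT00000005975 by -0.91 on the log2 scale, by the interaction test in limma.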

How the results depend on the processing

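The male-biased count was between 193 and 235 under the other scalings, filters, weights, blocks and fits, and between 210 and 246 when an array was left out; the female-biased count was between 10 and 31 and between 9 and 18, and all calls together numbered 224 to 261 with an array left out. One model over all entopallium groups raised the female-biased count to 31. None of the 242 transcripts changed sign under the 20 settings, of which the filter on low levels tested 218 of them. This was largely fixed in advance. Several settings leave the fold change as it was, and a transcript without overlap cannot change sign when an array is left out. With an array left out, 213 to 230 of the 242 stayed called. On the adjusted p alone there were 551 calls (493 male-biased, 58 female-biased), on the fold change alone 382 (81 female-biased), and at a log2(fold change) of at least 1 there were 12 (7 and 5). With the replicate block the count was 228 in all (216 male-biased, 12 female-biased). Males and females with the same replicate number, which is not the bird number, deviated together with correlations of -0.04 to 0.14. Correlations of this size cannot tell whether birds of the same replicate number were mates, and the labels do not say. The interaction of sex and tissue had 0 calls under every alternative, the replicate block and the bird as a random block included. The interaction of sex and species had 1 call after scaling to total intensity or without the lowest 25% of transcripts, 0 after quantile normalisation or with the replicate block, 5 with array weights, and 0 to 5 with a forest weaver or cordon-bleu array left out. For the 7 male-biased transcripts at 1 or above, the median log2(fold change) was 0.72 in forest weaver HVC (0.84 without the library labelled female replicate 4), 0.88 and 0.71 in cordon-bleu entopallium and HVC, and 0.48, 0.49 and 0.31 in breeding, non-breeding and testosterone-implanted canaries; the cause was not tested, and fewer transcripts stand behind these medians. The named transcripts kept their call under every alternative that tested them; XM_002189016 was removed by the filter on low levels. The fits without single HVC or cordon-bleu arrays were chosen after seeing the data.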

Other observations

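The numbers of the identifiers name no position, and the spread of the male-biased transcripts over them is given as a description. In windows of 500 consecutive accession numbers, the fullest window of the XM_ series held 12.5% of its 56 male-biased transcripts and 3.74% of its 10282 transcripts, and the 5 fullest held 44.6% and 17.7%. In the zebra finch Ensembl series, which was added after seeing the data, the 5 fullest windows held 65.4% of 107 male-biased transcripts and 16.5% of 11936 transcripts, and the same 5 windows held 59.2% of the 120 transcripts of that series that were male-biased in cordon-bleu entopallium. No test was applied to these shares, since the windows were picked for being full. Such a choice by itself raises their share of male-biased transcripts, so whether the spread was uneven is not read from them.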
